A study of Homo sapiens with 16 samples.

Results

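IL32 is the gene of interleukin-32, and its messenger RNA was followed here in human myeloma cell lines that had become resistant to venetoclax. It is 1 gene of the 15529 listed for at least 1 of 2 lines, KMS12PE and KMS27, and it was chosen by its measured counts, which were lower in all 3 resistant clones of KMS27 than in parental KMS27 cells. Its KMS27 difference between clones and parental cells is therefore described without a test, while its levels among clones and in KMS12PE were tested.

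Both lines are plasma cell cancers that carry the t(11;14) translocation, and venetoclax is an inhibitor of the survival protein BCL2. Each line gave 4 populations with 2 libraries each, 16 libraries in all. In KMS12PE these were the parental cells and clones A, C and D, with libraries numbered 1 and 3. In KMS27 they were the parental cells and clones B5, C1 and C5, with libraries numbered 1 and 2. Each clone was grown from 1 cell that outlived high-dose venetoclax and was then kept in 100 nM of the drug. The labels state no dose for the parental cells, so effects of venetoclax, of surviving it and of descent from 1 cell cannot be told apart in any difference between clones and parental cells. Nothing states that the 2 libraries of a population came from separate cultures, so p-values measure the spread between these libraries, which may be technical.

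IL-32 was first found as a transcript of activated natural killer and T cells. It is unlike most cytokines in that much of it stays inside the cell, and its known action on other cells is to raise inflammatory messengers such as TNF, IL-6 and CXCL8. The gene is switched on through NF-kB and related pathways downstream of TNF, Toll-like receptors and kinases such as SYK. In myeloma cells IL-32 has been linked to hypoxia, to release in extracellular vesicles, and to mitochondrial respiration through cytochrome c oxidase.

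RefSeq places IL32 on the plus strand of chromosome 16 (16p13.3), chr16:3065403-3069530 of GRCh38.p14, with 19 transcripts. GENCODE v29 gives a wider span, chr16:3065297-3082192, with 35 transcripts, 30 of them protein-coding. The deposited tables hold 1 row per gene symbol, so no isoform could be told from another. The pseudogene RNU1-125P overlaps the 3′ end of IL32 on the same strand and the noncoding gene AC108134.3 overlaps the GENCODE span on the opposite strand. Reads of these could not be told from those of IL32, since the sources used here do not say whether strand was kept.

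The promoter stretch is shown because NF-kB and cyclic AMP signalling are known routes to IL32, and the RNAs of NF-kB subunits are described further on. It is taken from RefSeq (GRCh38.p14, chr16:3065153-3065316, plus strand, 164 bases), 5′ to 3′, and capitals mark first the cyclic AMP response element (CRE) and then the NF-kB match:
IL32 promoter stretch: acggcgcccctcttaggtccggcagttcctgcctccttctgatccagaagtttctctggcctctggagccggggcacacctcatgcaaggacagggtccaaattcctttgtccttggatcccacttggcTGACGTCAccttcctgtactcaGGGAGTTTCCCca
The CRE, TGACGTCA, lies at 3065282 to 3065289, and 2 overlapping matches to the NF-kB motif lie at 3065304 to 3065314. Searched on both strands of 35116 promoter windows of 300 bases (250 before and 50 after a start), the NF-kB motif was found in 11.3% of windows, the CRE in 1.85%, and both together in 71 windows (0.202%). The AP-1 site TGANTCA (7.71% of windows), the hypoxia response core ACGTG (21.4%), the interferon-stimulated response element ISRE (3.57%) and the STAT site TTCNNNGAA (7.66%) had no match in either of the 2 IL32 windows, chr16:3065153-3065452 and chr16:3065534-3065833. The second window had no match to any of the 6 motifs. A match is a string of letters and not a measured binding site.

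Levels are given as CPM, the counts of a gene scaled to a common library size, after scaling by the trimmed mean of M-values (TMM) within each line, with the counts behind them. In parental KMS27, IL32 had 17217 counts (624 CPM) in library 1 and 19713 counts (769 CPM) in library 2. In clone B5 it had 227 counts (9.44 CPM) and 266 counts (14.1 CPM). In clone C1 it had 1146 counts (22.8 CPM) and 281 counts (10.8 CPM). In clone C5 it had 510 counts (17.2 CPM) and 577 counts (23.0 CPM). All 6 clone libraries were low and both parental libraries high, with no overlap, as in 14.0% of all genes tested in KMS27, a share that is given for scale only since the gene was chosen for this gap.

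The lowest parental KMS27 library was 27.1 times the highest clone library, and the highest parental library was 81.4 times the lowest clone library. Mean levels (± SD, n = 2 libraries) were 697 ± 102 CPM in parental cells against 11.8 ± 3.32 for B5, 16.8 ± 8.46 for C1 and 20.1 ± 4.13 for C5. The clones thus held 1.69%, 2.41% and 2.89% of the parental level, 59.1-fold, 41.5-fold and 34.7-fold less. The difference fitted with edgeR on the log2 scale was -5.89 (SE 0.38) for clone B5, -5.36 (SE 0.37) for clone C1 and -5.12 (SE 0.36) for clone C5, and -5.46 (SE 0.24) for their mean. These values chose the gene and carry no test. They mark it as the 21st largest difference toward lower RNA of 14088 genes tested in KMS27.

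IL32 RNA was lower but not absent in the KMS27 clones. In these libraries 3 counts correspond to 0.0596 to 0.160 CPM, well under the lowest IL32 value of 9.44 CPM. Set per kilobase of the gene's merged exons (1684 bases), parental KMS27 held 414 CPM per kilobase, rank 116 from the top of 12455 genes with a known length. The clones held 7.00 (B5), 9.96 (C1) and 11.9 (C5) CPM per kilobase, ranks 5993, 5008 and 4439, where the median gene lay at 6.47, 6.68 and 6.73. In KMS12PE parental cells and clones A, C and D held 67.5, 72.6, 62.4 and 44.4 CPM per kilobase, ranks 923, 863, 989 and 1418 of 11415. IL32 thus stood among the most abundant messages of parental KMS27 and at or slightly above the middle of the genes listed in its clones. RNA from bulk cells does not show whether fewer cells carried IL32 RNA or each cell carried less of it.

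**Figure D1:**
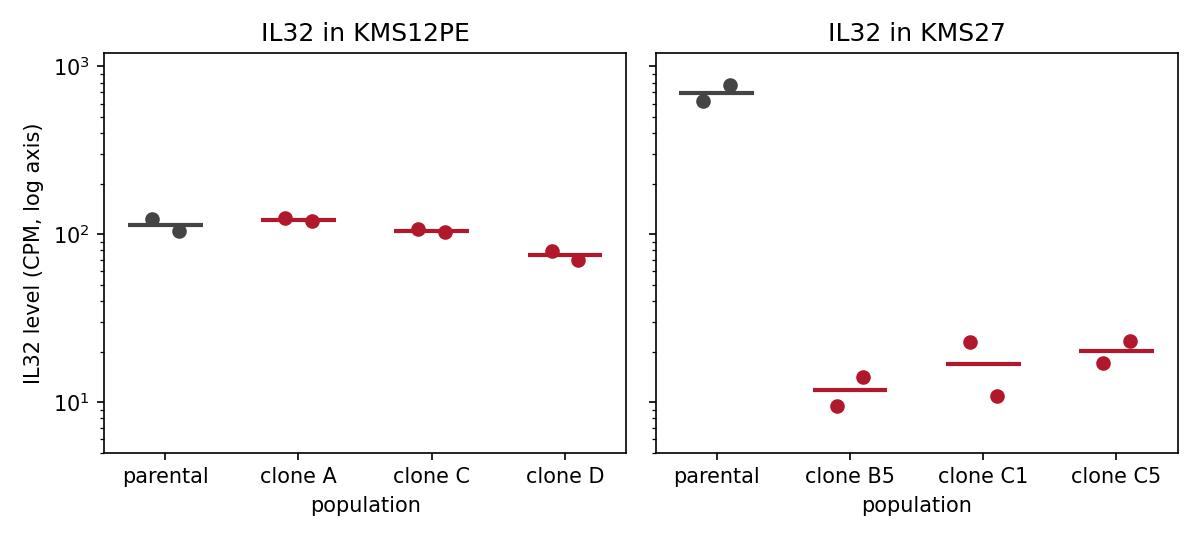
IL32 level in CPM (log axis) in each library of KMS12PE (left) and KMS27 (right); points are libraries, lines are the mean of 2 libraries, grey is parental and red the clones. The 6 KMS27 clone libraries sit between 9.44 and 23.0 CPM, under every KMS12PE library and far under the parental KMS27 libraries at 624 and 769 CPM.

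The 3 KMS27 clones were not told apart by their IL32 level. The joint test among them gave an adjusted p of 0.259 (edgeR's quasi-likelihood test, Benjamini-Hochberg over all genes), where 13.7% of genes tested were called. Clone C5 exceeded B5 by 0.78 on the log2 scale (SE 0.34, adjusted p = 0.208), C1 exceeded B5 by 0.54 (SE 0.33, adjusted p = 0.324), and C5 exceeded C1 by 0.24 (SE 0.32, adjusted p = 0.695). Of all genes, 7.20%, 11.3% and 4.63% were called in these 3 contrasts, in the same order. The 2 libraries of clone C1 differed 2.11-fold in IL32, more than the clone means of C1 and C5, and library 1 of C1 was the deepest of the line (52615971 counts). Without that library the fitted C1 difference from parental cells was -6.01.

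In KMS12PE, IL32 stayed within a narrow range. Parental cells had 702 counts (123 CPM) and 663 counts (104 CPM). Clone A had 1110 and 1548 counts (125 and 120 CPM) and clone C had 1215 and 1461 counts (107 and 103 CPM). Clone D had 506 and 784 counts (79.8 and 69.8 CPM), below all 6 other libraries of the line. Means were 114 ± 13.5, 122 ± 3.49, 105 ± 2.82 and 74.8 ± 7.07 CPM (SD, n = 2) in parental cells and clones A, C and D.

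IL32 fell in clone D of KMS12PE by 0.61 on the log2 scale (SE 0.11, adjusted p = 0.0139 with edgeR), to 65.8% of the parental mean. In that contrast 5.16% of genes were called. The 2 other clones did not pass the test, with 0.10 in clone A (SE 0.11, adjusted p = 0.967) and -0.11 in clone C (SE 0.11, adjusted p = 0.860). The mean over the 3 clones did not pass either (-0.21, SE 0.09, adjusted p = 0.441; 0.0660 with the library number as a block). Among the clones, IL32 differed in the joint test (adjusted p = 0.00832, 8.22% of genes called), and clone D lay below clone A by 0.71 (SE 0.11, adjusted p = 0.00443, 6.77% of genes called) and below clone C by 0.50 (SE 0.11, adjusted p = 0.0217, 8.58% called), whereas C and A differed by 0.22 without passing (adjusted p = 0.639, 1.32% called). The clone D call against parental cells was lost without parental library 1 (adjusted p = 0.0895) or clone D library 3 (0.0807). The joint call was lost without clone D library 3 (0.0534), and the D to C call without either clone C library or clone D library 3 (0.117, 0.0792 and 0.121).

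Over all 8 populations the order of IL32 levels was parental KMS27, then KMS12PE clone A, parental KMS12PE, clone C and clone D, then KMS27 clones C5, C1 and B5. The ranges of clone A and parental KMS12PE overlapped, as did those of parental KMS12PE and clone C, of KMS27 clones C5 and C1, and of C1 and B5. Parental KMS27 held 6.13 times the CPM of parental KMS12PE, and its lower library stood at 5.01 times the highest KMS12PE library. The lowest KMS12PE library held 3.03 times the IL32 of the highest KMS27 clone library. These ratios join 2 tables scaled apart. With the 16 libraries scaled together over the 11623 genes listed in both tables, a choice made after the values were seen, the ratio of the parental lines was 6.88 and the order between lines held (KMS27 clones 10.6 to 25.0 CPM, KMS12PE 67.2 to 123 CPM). Whether the response differed between the lines was not tested, because the KMS27 side was chosen for its size.

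Beside IL32 stood a broad difference in KMS27. Of 14088 genes tested, 3631 (25.8%) passed for the mean of the 3 clones against parental cells, 1836 higher (13.0%) and 1795 lower (12.7%), with a median log2 difference over all genes of -0.01. That count ranged from 1285 without parental library 1 and 1521 without parental library 2 to 5825 without clone B5 library 1, and was 2413 without clone C5 library 2. With the library number as a block it was 4427 (31.4%). In KMS12PE 181 of 12279 genes passed (1.47%), 44 higher (0.358%) and 137 lower (1.12%), and 798 (6.50%) with the library number as a block. That count fell to 44 or 49 without a parental library and to between 95 and 109 without a library of clone A or C. Counts over the gene lists below are to be read against these shares, and they are for the mean of the 3 clones of a line unless a clone is named.

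The genes beside IL32 on the chromosome did not share its difference. Within 500 kb on either side 25 genes were tested in KMS27. Their log2 differences lay between -0.72 and 0.87 with a median of 0.10 (0.14, 0.08 and 0.15 for clones B5, C1 and C5), and 4 rose while 2 fell. The nearest tested gene on the left, the antisense gene MMP25-AS1 at 6.03 kb, went from 6.03 ± 1.02 CPM to 4.16 ± 1.31 over the 3 clone means (-0.59, SE 0.17, adjusted p = 0.0345). The nearest on the right, the antisense gene ZNF213-AS1 at 56.0 kb, went from 2.92 to 1.80 CPM (-0.72, SE 0.23, adjusted p = 0.0452). Both calls were lost without either parental library and without any library of clone C1 or C5, and both genes are antisense to a partner whose reads they may share.

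The other nearest genes did not pass. On the left these were THOC6 of the mRNA export complex (0.37, adjusted p = 0.0941), HCFC1R1 (0.27, adjusted p = 0.310) and the TWEAK receptor TNFRSF12A (-0.22, adjusted p = 0.810). On the right they were the zinc finger genes ZNF213 (0.33, adjusted p = 0.286) and ZNF200 (-0.06, adjusted p = 0.692), and LINC00921 (0.26, adjusted p = 0.663). The genes that rose were KREMEN2, a Wnt coreceptor (0.82, adjusted p = 0.0143), PAQR4 (0.48, adjusted p = 0.0118), the CDK1-inhibiting kinase PKMYT1 (0.78, adjusted p = 0.0031) and CLUAP1 (0.49, adjusted p = 0.0427), all edgeR values. Without either parental library PKMYT1 was the 1 of these 4 still called, and PKMYT1 and PAQR4 overlap, so reads could be split between them. In KMS12PE none of 30 tested neighbours passed for the mean of the clones with edgeR (3 at an unadjusted p under 0.05, 0 with DESeq2), with a median of -0.04. With the block KCTD5 was called higher and PAQR4 lower. In clone D the median neighbour lay at -0.14 and 2 of the 30 fell, PRSS21 by 0.69 (adjusted p = 0.0211) and ZNF205 by 1.06 (adjusted p = 0.0149), where 3.31% of all genes were called lower.

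**Figure D2:**
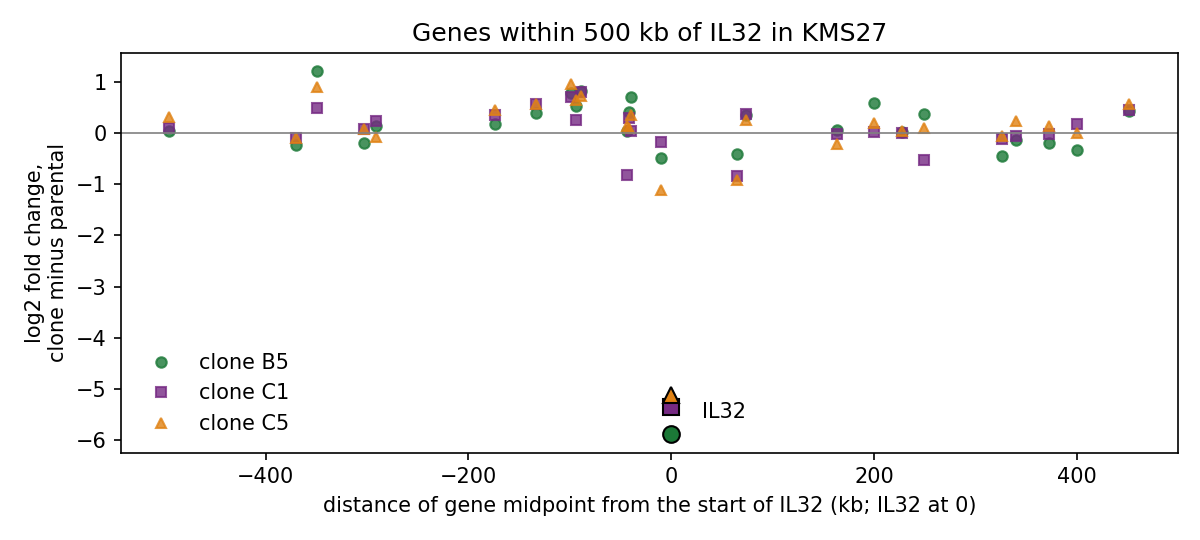
Log2 difference of each KMS27 clone from parental cells for the 25 genes tested within 500 kb of IL32, against the distance of each gene's midpoint from the IL32 start in kb, with IL32 at 0. The 3 IL32 points lie at -5.89, -5.36 and -5.12 while the means of the neighbours over the 3 clones stay between -0.72 and 0.87.

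Transcription factors and co-activators known to act on IL32 or on inflammatory genes moved both ways in KMS27. Of 25 tested, 4 rose (NFATC2, FOS, ARNT and RUNX3) and 5 fell (among them EGR1, RELA, CEBPB and FOSL2), with a median of 0.05. RELA, the main activating subunit of NF-kB, averaged 83.4 ± 0.46 CPM in parental cells (2291 and 2147 counts) and 62.1 ± 15.3 over the clone means, with 962 and 940 counts for clone B5, 3915 and 1848 for C1, and 1892 and 1753 for C5. In CPM all 6 clone libraries lay below both parental libraries, and clone B5 lay lowest. RELA fell by 0.46 over the clones (SE 0.10, adjusted p = 0.0104), by 0.89 in B5 (adjusted p = 0.0017, where 21.0% of genes were called), while C1 (-0.17, adjusted p = 0.373) and C5 (-0.32, adjusted p = 0.112) did not pass.

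The other NF-kB subunits did not pass in KMS27: NFKB1 gave -0.12 (adjusted p = 0.313), NFKB2 -0.74 (SE 0.34, adjusted p = 0.148) and RELB 0.07 (adjusted p = 0.723). With the library number as a block, NFKB2 was called lower. NFKB2 itself differed between libraries of 1 clone, with 32.5 and 9.52 CPM in B5. The hypoxia factor HIF1A (0.14, adjusted p = 0.264), the general activator SP1 (0.05, adjusted p = 0.735) and STAT3 (0.23, SE 0.09, adjusted p = 0.0730) did not pass. NFATC2, a calcium-regulated factor of lymphocytes, rose from 42.5 to 64.6 CPM (0.58, adjusted p = 0.00324). The immediate early genes differed by clone: EGR1 was 1.05 in B5 and -1.87 and -2.03 in C1 and C5, and FOS was 4.58, 2.51 and 0.52.

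These counts rested on single libraries. Without parental library 1 the list had 1 gene higher and 0 lower, without parental library 2 it had 1 and 1, and without clone C1 library 1 or either clone C5 library 2 were higher. RELA was no longer called without either parental library (adjusted p = 0.0958 and 0.0867). In KMS12PE 1 of 21 tested factors fell and 0 rose (2 at an unadjusted p under 0.05, 0 with DESeq2). With the block REL, an NF-kB subunit, was called lower as well. The 1 was ETS1, a lymphoid factor, with 130 and 141 CPM in parental cells, 94.2 and 94.3 in clone A, 162 and 147 in clone C, and 0 and 1 counts in clone D. Thus ETS1 was near 0 in the KMS12PE clone where IL32 was lowest, as 1 of 634 genes (5.16%) called in that clone. In KMS27, ETS1 was not called for the mean of the clones but was called in clones B5 and C1. The part of ETS1 in the IL32 level was not tested. RELA (0.10, adjusted p = 0.891) and NFKB1 (0.03, adjusted p = 0.960) did not pass in KMS12PE.

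Among receptors, ligands and kinases that induce IL32, 24 were tested in KMS27. Of these 8 rose (among them TNFRSF1B, TLR7, IRAK1, TNFRSF1A, IKBKG, SYK and RIPK2) and 1 fell (PIK3CD), with a median of 0.22. TNFRSF1B, TNF receptor 2, read 0.979 and 0.897 CPM in parental cells, 5.53 and 4.79 for clone B5, 10.7 and 6.72 for C1, and 9.17 and 12.7 for C5 (3.07, SE 0.28, adjusted p = 0.000121). Each clone library was above both parental libraries.

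TNFRSF1A, TNF receptor 1, went from 14.7 ± 0.41 to 24.3 ± 2.09 CPM (0.73, SE 0.13, adjusted p = 0.00458; 0.0566 without parental library 1). The RNA-sensing receptor TLR7 rose from 185 to 336 CPM (0.86, adjusted p = 0.000387) and the kinase IRAK1 that acts after it from 157 to 302 CPM (0.94, adjusted p = 0.00145). PIK3CD, a PI3-kinase of leukocytes, had 86 and 79 counts in parental cells, 0 and 0 for clone B5, 6 and 0 for C1, and 16 and 21 for C5, at least 44.3-fold lower in B5 against 3 counts over its libraries. Without a parental library 4 of the 24 were higher. In KMS12PE 1 of 24 fell, the kinase SYK, with 11 and 18 counts in parental cells, 97 and 99 in clone A, 0 and 1 in clone C, and 0 and 0 in clone D (at least 13.9-fold lower in D). SYK was higher in clone A than in parental cells in both libraries, and with the 3 clones taken as 1 group its difference turned to 0.38. With the block IRAK1 was called lower as well, and without a parental library, either clone A library or clone C library 1 none was. IL18, a cytokine that induces IL32, gave 0.46 in KMS12PE (SE 0.45, adjusted p = 0.863) and is not listed in KMS27.

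Known binding partners and effectors of the IL-32 protein showed 0 of 10 tested higher in KMS27 (3 at an unadjusted p under 0.05, 0 with DESeq2, 1 with the block), with a median of 0.12. The integrin chain ITGAV, through which secreted IL-32 can act, gave 0.06 (adjusted p = 0.812), and the protein kinases C PRKCD and PRKCE gave -0.19 (adjusted p = 0.244) and 0.39 (adjusted p = 0.415). The protease PRTN3, the integrin ITGB3 and the focal adhesion kinase PTK2 are not listed in either table. In KMS12PE 1 of 7 fell, the inflammatory caspase CASP1 (71.6 to 46.5 CPM, -0.63, adjusted p = 0.00439; 0.0827 without parental library 3).

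Cytochrome c oxidase, the respiratory complex to which IL-32 has been linked in plasma cells, had few messages that passed the test. Of 31 subunit and assembly genes in KMS27, 2 rose and 1 fell, with a median of 0.03. With the library number as a block 2 were higher and 4 lower, where 31.4% of all genes were called. COX5B, the subunit reported to bind IL-32, went from 85.0 ± 14.7 to 89.1 ± 9.73 CPM (0.06, SE 0.14, adjusted p = 0.789). The assembly factor COX11 rose (0.33, adjusted p = 0.0220), as did the subunit COX6C (0.39, adjusted p = 0.0481), and COX18 fell (-0.45, adjusted p = 0.00704). None of the 3 calls held without a parental library, and without clone B5 library 2 there were 6 lower. In KMS12PE none of 30 passed for the mean of the clones with edgeR or DESeq2, and none had an unadjusted p under 0.05 there (COX5B 0.05, adjusted p = 0.943). By clone 1 rose in clone C, COX6C (0.55, adjusted p = 0.0148, where 1.78% of genes were called), and 1 in clone D, COX20 (0.44, adjusted p = 0.0402). The complex's mitochondrially encoded subunits were not analysed here.

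Of the genes that IL-32 protein is known to induce in inflammation, only 6 of 25 are listed in KMS27, since a listed gene has at least 5 counts in at least 4 libraries. TNF, IL6, CXCL8, IL1B and PTGS2 are among those not listed in either table. Of the 6, 3 rose (CXCL10, CCL5 and ICAM1) and 0 fell (0 at an unadjusted p under 0.05, 0 with DESeq2), with a median of 0.70. CXCL10, an interferon-induced chemokine, had 4 and 10 counts in parental cells, 62 and 72 for clone B5, 112 and 41 for C1, and 268 and 268 for C5 (0.268 to 4.99 CPM, 3.87, SE 0.40, adjusted p = 0.000223).

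The T cell chemokine CCL5 read 3.45 and 5.30 CPM in parental cells, 6.74 and 9.78 for B5, 14.6 and 11.6 for C1, and 23.6 and 27.4 for C5 (1.68, SE 0.22, adjusted p = 0.000871). The adhesion molecule ICAM1 rose from 158 to 280 CPM (0.83, adjusted p = 0.0131), a call lost without either parental library (0.0946 and 0.0857). DESeq2 called 5 of the 6 higher, as did edgeR without clone B5 library 2. By clone 1 of the 6 fell, the chemokine CCL3 in B5 (-1.21, adjusted p = 0.0206), which rose in C1 (1.68) and C5 (1.28). In KMS12PE 0 of 4 tested passed with edgeR (1 lower at an unadjusted p under 0.05, 0 with DESeq2, 1 lower with the block). CCL5 fell in clone D of KMS12PE (-3.17, adjusted p = 0.0249).

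Among cytokine and chemokine genes at large, IL32's own class, 24 of 77 are tested in KMS27. Of these 7 rose (CXCL10, CCL28, CCL5, TNFSF10, CSF1, LTA and EBI3) and 4 fell (VEGFB, IL15, TNFSF13B and CLCF1), with a median of 0.34. The mucosal chemokine CCL28 rose from 1.42 to 5.49 CPM (1.92, adjusted p = 0.000353), and the growth factor VEGFB fell from 49.1 to 27.9 CPM (-0.93, adjusted p = 0.000612). Without parental library 1, clone C1 library 1 or clone C5 library 2 the higher count was 4. The lower count was 1 without either parental library and 2 without either clone C5 library. In KMS12PE 2 of 20 fell, lymphotoxins LTB and LTA, and 0 rose (2 at an unadjusted p under 0.05, 0 with DESeq2). With the block CD70 was called lower too and TGFB2 higher.

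LTB in KMS12PE read 13.2 and 23.4 CPM in parental cells, 5.62 and 6.65 in clone A, 7.93 and 11.2 in clone C, and 0.473 and 0.445 in clone D. Like IL32 it was lowest in clone D, where it fell by 5.29 (SE 0.43, adjusted p = 0.000167). In that clone, where 3.31% of all genes were called lower, 6 of the 20 cytokine genes fell: LTA, LTB, TNFSF9, CD70, CCL5 and CXCL16.

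Targets of NF-kB split in KMS27, with 9 of 30 higher (CCR7, CD83, NFKBIE, IL2RG, ICAM1, CD69, LTA, TNFAIP3 and EBI3) and 6 lower (GADD45B, PLEK, BIRC2, BIRC3, TNFAIP2 and NFKBIB), and a median of 0.12. The lymph node homing receptor CCR7 read 3.30 and 3.04 CPM in parental cells, 20.3 and 22.4 for clone B5, 46.5 and 29.7 for C1, and 97.4 and 117 for C5 (3.80, SE 0.22, adjusted p = 9.59e-06). The activation marker CD83 rose from 14.7 to 23.3 CPM (0.67, adjusted p = 0.00153) and the NF-kB inhibitor NFKBIE from 19.6 to 34.7 CPM (0.81, adjusted p = 0.00164), while the stress gene GADD45B fell from 69.7 to 43.1 CPM (-0.74, adjusted p = 0.00116).

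Without parental library 1 the NF-kB list had 3 higher and 2 lower, without parental library 2 it had 4 and 1, and without clone C5 library 2 it had 5 higher. Without either clone C1 library or clone C5 library 1 it had 3 lower, as it had when libraries were scaled by their totals alone. In KMS12PE 4 of 26 fell (LTB, PLEK, IL2RG and LTA) and 0 rose (2 at an unadjusted p under 0.05, 0 with DESeq2). With the block 5 were lower and 2 higher. The lower count dropped to 1 or 2 without a parental library, a library of clone A or C, or clone D library 3.

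Hypoxia targets also went both ways in KMS27, with 5 of 24 higher (PFKFB3, P4HA2, NDRG1, BNIP3L and PGK1), 7 lower (ENO2, ANKRD37, PDK1, ADM, ALDOC, HK2 and P4HA1) and a median of 0.03. This mean joined clones with unlike counts of called members. Clone C1 had 7 called higher and 2 lower, with a median of 0.30. Clone B5 had 3 higher and 10 lower (median 0.06), and clone C5 had 2 higher and 8 lower (median -0.30). In clone B5 against parental cells 21.0% of all genes were called in either direction. That share is not given here for C1 and C5, so their counts have no background to be read against. ENO2, a glycolytic enolase, had 514 and 456 counts in parental cells, 4 and 3 for clone B5, 106 and 33 for C1, and 8 and 10 for C5 (-5.31, SE 0.22, adjusted p = 1.85e-06). PFKFB3, which drives glycolysis, rose from 2.91 to 11.3 CPM (1.89, adjusted p = 9.11e-05). Without a parental library 4 were lower, without parental library 1 there were 3 higher, and without clone B5 library 2 there were 8 higher. In KMS12PE 1 of 24 fell, the stress gene DDIT4 (16.8 to 9.05 CPM, -0.90, adjusted p = 0.0153), a call lost without either parental library or clone A library 3. With the block ADM was called higher.

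**Figure D3:**
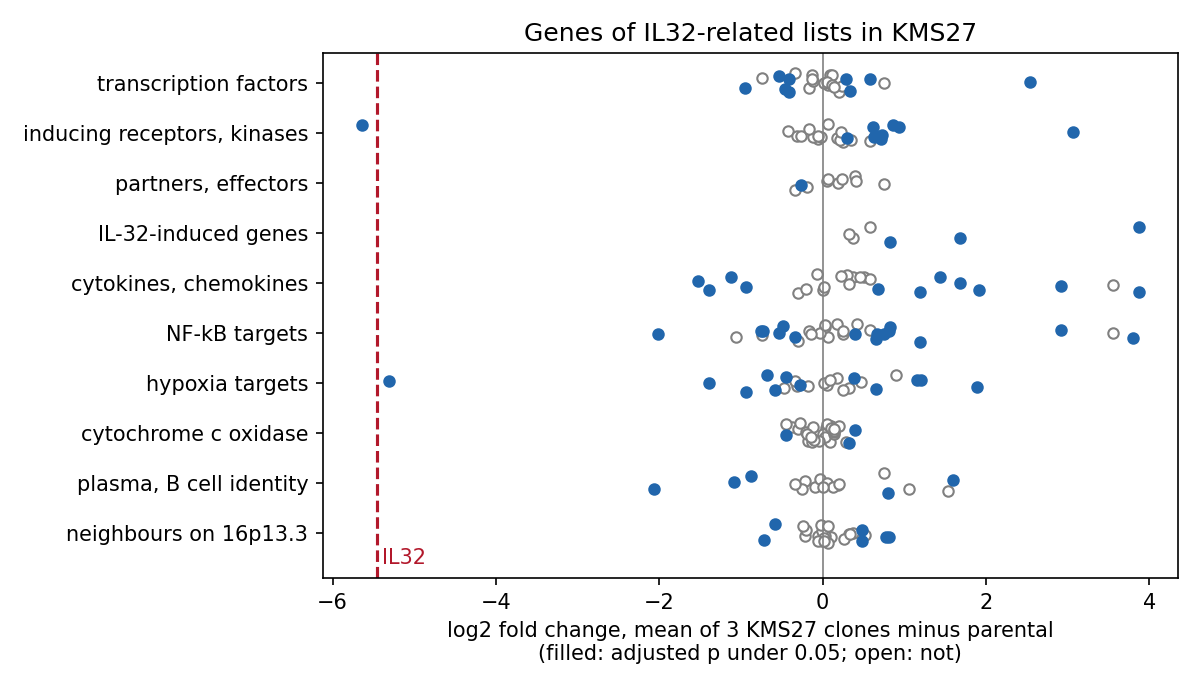
Log2 difference between the mean of the 3 KMS27 clones and parental cells (x axis) for each tested gene of the 10 lists (y axis); filled points passed edgeR's test at an adjusted p under 0.05, open points did not, and the dashed line marks IL32 at -5.46. Most points lie near 0, filled points lie on both sides in most lists, and the NF-kB list has 9 filled points above 0 and 6 below of 30.

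The plasma cell and B cell identity of the libraries was checked because IL32 is best known from T and natural killer cells. All 10 plasma cell markers are listed in both lines. Their summed level was 3985 to 4391 CPM in parental KMS12PE and 3553 to 4542 in its clones, and 10680 to 12369 CPM in parental KMS27 and 6135 to 10961 in its clones. Of 18 identity genes tested in KMS27, 2 rose (SPIB and PAX5) and 3 fell (CD38, MZB1 and JCHAIN), 5 falling without either clone B5 library. CD38, a plasma cell surface enzyme, read 106 and 111 CPM in parental cells, 79.9 and 74.9 for clone B5, 79.0 and 97.9 for C1, and 2.36 and 2.71 for C5, so that clone C5 stood apart from the other clones in CD38 while its IL32 range overlapped that of C1. In KMS12PE 1 of 15 rose (BACH2) and 2 fell (POU2AF1 and JCHAIN), and with the block 3 rose and 3 fell. POU2AF1, a B cell co-activator, had 0 counts in both clone D libraries, at least 204-fold lower than in parental cells.

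Of 14 T and natural killer cell markers, CD3D, CD2, CD5, GNLY, PRF1 and KLRD1 are in neither table. The 5 listed in KMS27 are CD3E, TRAC, TRBC1, NKG7 and NCAM1, and the 3 listed in KMS12PE are CD3G, CD7 and CD8A. The summed level of the 5 in KMS27 was 131 to 140 CPM in parental cells and 140 to 163 in clones. Of the 5, 2 (CD3E and NKG7) were called higher with edgeR and 1 with DESeq2, and 0 to 2 with a library left out. The part of these markers in the IL32 level was not tested. Their summed level was 6.32 to 6.60 CPM in parental KMS12PE and 4.76 to 6.97 in its clones. None of 8 myeloid and 7 stromal markers is listed in KMS12PE, against 1 and 2 in KMS27, with summed levels of at most 1.68 and 4.47 CPM in any library, and 1 of 4 endothelial markers is listed in each line (at most 9.18 CPM in KMS27 and 11.3 in KMS12PE). In KMS27 each of the 3 tested was called higher for the mean of the clones with edgeR. These were the myeloid ITGAM (3.45, adjusted p = 0.00353), the stromal ACTA2 (1.14, adjusted p = 0.0448) and the endothelial PECAM1 (1.12, adjusted p = 0.0102). None of the 3 calls held in every fit with a library left out. ITGAM read 0.0363 to 0.0780 CPM in parental cells, under the CPM of 3 counts there. PECAM1 read 1.64 to 1.92 CPM in parental libraries and 1.69 to 9.18 in clone libraries. The part of these 3 genes in the IL32 level was not tested.

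The genes whose RNA most resembled IL32 over the 8 KMS27 libraries were sought among 9083 genes with a mean of at least 3 on the log2 CPM scale. By correlation of log2 CPM these were the purine synthesis enzyme PAICS (r = 0.990), the phosphatase UBASH3B (0.985), the kinase TKFC (0.982), the cysteinyl-tRNA synthetase CARS (0.974) and the fatty acid oxidation enzyme ACADM (0.973). With 8 libraries in 4 populations such an r mainly reflects the gap between parental cells and clones, and it ignores size: PAICS differed by -0.45 and CARS by -0.62 where IL32 differed by -5.46. By the root mean square distance of centred log2 CPM, which keeps size, the most alike were UBASH3B (0.57), RPH3A (1.10), the potassium channel gene KCNK6 (1.13), the pseudogene GVINP1 (1.17) and SLC47A1 (1.29).

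UBASH3B, a negative regulator of tyrosine kinase signalling in lymphocytes, was the single gene on both lists. It read 53.8 and 50.5 CPM in parental KMS27, 0.458 and 0.957 for clone B5, 0.636 and 0.269 for C1, and 0.943 and 0.638 for C5, a fitted difference of -6.32 (SE 0.21). As for IL32, both parental libraries were high and the 6 clone libraries were low and within a few-fold of each other. RPH3A, a vesicle trafficking gene (41.9 to 2.81 CPM), and the transporter SLC47A1 (50.6 to 6.73 CPM) differed more between clones, RPH3A by -5.45, -2.88 and -4.58 in B5, C1 and C5. These genes were chosen for this pattern, so no test applies.

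Among genes of at least 3 on the mean log2 CPM scale called lower in each of the 3 KMS27 clones, 341 in number, IL32 had the third largest difference. For IL32 a place in this set rests on the values that chose it, so the rank is a description and not a test. The others of the leading 5 were UBASH3B (-6.32), the transporter gene SPNS3 (-5.50), the ubiquitin ligase gene TRIM44 (-4.92) and RPH3A (-4.30). SPNS3 differed by -3.79, -5.26 and -7.44 and TRIM44 by -4.16, -7.05 and -3.56 in B5, C1 and C5, a wider spread between clones than the -5.89, -5.36 and -5.12 of IL32. None of the 8 listed genes most like IL32 passed in KMS12PE for the mean of the clones, where the adjusted p ran from 0.0835 (SLC47A1) to 0.975 (KCNK6), and RPH3A is not listed there. By clone 1 of the 8 passed, SLC47A1, which fell in clone D by 0.98 (adjusted p = 0.0392). Of the 9 genes, 6 had a RefSeq promoter window, and PAICS and RPH3A had 3 each. UBASH3B and KCNK6 held an NF-kB match (11.3% of all windows) and PAICS an AP-1 match (7.71%). PAICS and TKFC held a hypoxia response core (21.4%), and none held the CRE (1.85%). Whether these matches exceed the shares was not tested.

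**Figure D4:**
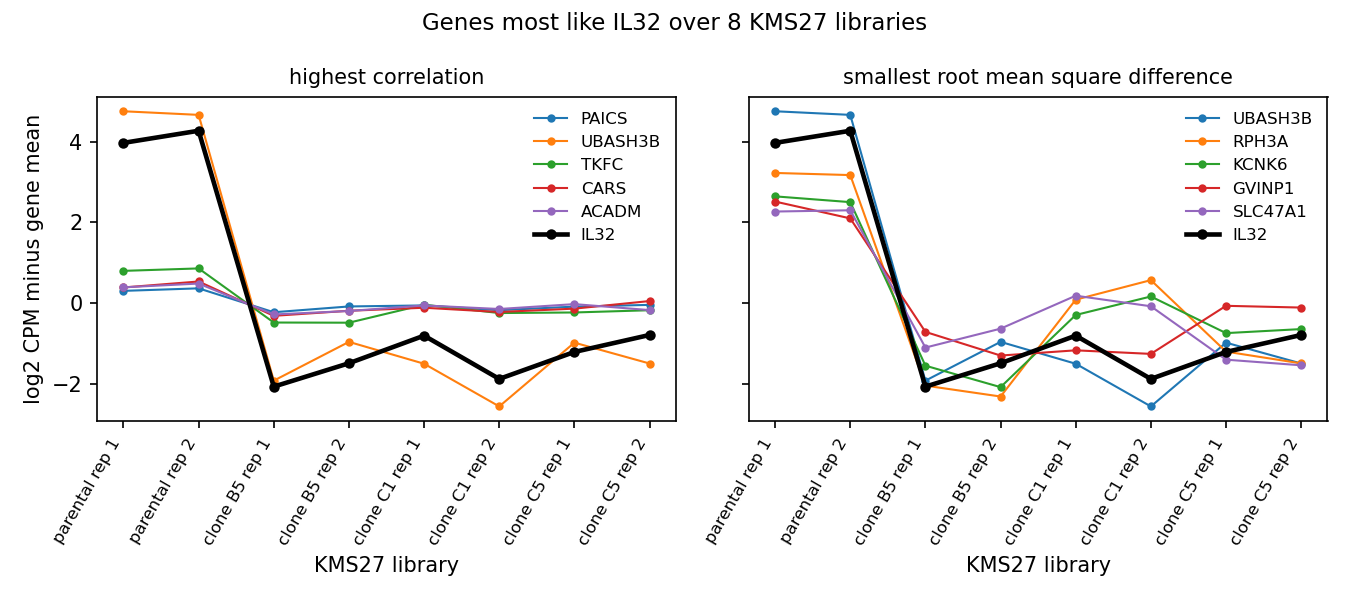
Log2 CPM of IL32 and of the genes most like it in each of the 8 KMS27 libraries, each centred on its own mean. UBASH3B follows IL32 most closely in size, with a root mean square distance of 0.57, while PAICS has the highest correlation (0.990) on a far smaller scale.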

How the data were processed

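The authors deposited 1 table of whole-number counts per gene symbol and library for each line, without normalization. The genome build is hg38, per the submitters' processing notes. The aligner, the counting tool, its annotation and its use of strand are not stated in the sources used here. Per the labels' protocols, poly-A libraries were made from 200 ng of RNA. Totals ran from 5831289 to 13674426 counts in KMS12PE and 20257318 to 52615971 in KMS27, where 3 counts equal 0.212 to 0.527 and 0.0596 to 0.160 CPM. Such floors cover counting error only.

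Each line was fitted apart in edgeR 4.0.16 (R 4.3.3; filterByExpr, TMM, estimateDisp, glmQLFit, glmQLFTest, 1 mean per population, 4 residual degrees of freedom), 2-sided, with Benjamini-Hochberg adjustment over 12279 of 12592 genes in KMS12PE and 14088 of 14560 in KMS27, called under 0.05. Every listed gene has at least 5 counts in at least 4 libraries of its line. Values on the log2 scale are fitted differences, and log2 CPM used a prior count of 2. The biological coefficient of variation was 11.9% and 14.3% (for IL32 7.78% and 22.3%). The fit was tested on simulated data. No pair of libraries agreed within sampling noise (chi-square per degree of freedom 5.19 to 58.0).

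Libraries with 1 number deviated together in KMS12PE (r 0.254 to 0.537), so blocked values are given where they change a call, but not in every pair of KMS27 populations (0.0597 to 0.444). Motifs and promoters come from RefSeq GRCh38.p14 and exon lengths from GENCODE v29.

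The gene and the lists were chosen with earlier results of these data known. Named were IL32, up to 4 called genes per list and line by adjusted p, a set of IL32 regulators and partners whatever their result, the 4 nearest tested genes per side, the 5 most alike by each measure and the 5 largest falls called in all 3 clones. Other called members are named as their lists were counted. A few list members are not reported here by name, though the counts include them. Alternatives were DESeq2 1.42.0 size factors and test, library totals, no filter, the block, the clones as 1 group, and each library left out.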

Additional observations from a re-analysis of the deposited data

Results flagged for a closer look

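IL32 differed among the 3 KMS12PE clones by the joint test of the difference between them (adjusted p = 0.00832 with edgeR), which marked it for a closer look. Mean levels were 122 CPM in clone A, 105 in clone C and 74.8 in clone D (n = 2 libraries each), and clone D was the lowest in both of its libraries.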

How the results depend on the processing

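The IL32 difference in KMS27 lay between -5.67 and -5.29 with each library left out. The fit with the 3 clones as 1 group was not read for it. The gene was chosen for this difference, so the range describes its size and its direction was not tested. The joint test among KMS27 clones stayed above the threshold (adjusted p 0.0689 to 0.535 with a library left out, 0.193 with the replicate block). In KMS12PE the clone D difference ran from -0.716 to -0.466 (adjusted p 0.0171 to 0.0895) and the joint adjusted p among clones from 0.00897 to 0.0534 with a library left out. Differences that did not pass changed sign in clone A without parental library 3 (range -0.0182 to 0.232 with a library left out) and in clone C without parental library 1 (range -0.231 to 0.0197).

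The count of genes called in KMS27 was 1497 with the 3 clones as 1 group and 1285 to 5825 with a library left out. In KMS12PE it was 798 with the replicate block, 44 to 186 with a library left out, and 0 with the 3 clones as 1 group (edgeR, 587 genes at an unadjusted p under 0.05). The block changed no call on IL32 in the joint test of either line. In KMS12PE it changed none for the mean, for each clone against parental cells, or for D against A or C. KMS12PE clone C against A and the pairs of KMS27 clones were not checked with the block. Of 51 called genes named in KMS27, 24 lost their call under at least 1 alternative and 0 changed sign; of 11 in KMS12PE all 11 did, and SYK changed sign (0.38) with the clones as 1 group. Depth limits genes near 3 counts, not IL32.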
